A study of Mus musculus with 30 samples.

Results

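The expression of 10 dendritic cell genes was described in 8 populations of sorted monocytes and macrophages. These were *Zbtb46* and *Flt3*, which are shared by conventional dendritic cells, *Xcr1*, *Clec9a* and *Batf3* of the type 1 lineage, *Cd209a* and *Clec10a* of the type 2 lineage and of dendritic cells that arise from monocytes, and *Fscn1*, *Ccl17* and *Ccl22* of mature or migrating dendritic cells. They were chosen by name, as a measure of dendritic differentiation or of dendritic cells sorted along with the others. This was done with earlier results of these data known. They are 10 of the 45317 gene symbols counted. All mice were heterozygous C57BL6.CCR2RFP/WT animals of 12 to 18 weeks, in which a red fluorescent protein replaces one copy of *Ccr2*, and all carried an intracranial GL261.BpalmGFP tumor, a mouse glioma line that labels its membranes with GFP. There was thus no tumor-free group. Blood gave Ly6Chigh and Ly6Clow monocytes (CD45high, CD115high, CD11c low). The glioma-bearing brain gave Ly6Chigh monocytes, CCR2high macrophages and CCR2low macrophages from the CD11bhigh CD45high gate with antibodies to F4/80 (a macrophage surface protein) and Ly6C, each split into GFPpos and GFPneg cells by uptake of tumor membrane. The 4 mice are numbered 22, 23, 24 and 26. Monocyte populations had 3 replicates each (mice 22, 23 and 24 for blood, and 22, 24 and 26 for brain) and macrophage populations had 4.

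Conventional dendritic cells grow out of the bone marrow under FLT3 ligand and carry the transcription factor ZBTB46, which monocytes and most macrophages lack. Type 1 cells depend on BATF3, take up dead cells through CLEC9A and migrate towards XCL1 through the receptor XCR1, while type 2 cells carry C-type lectins such as CD209A and CLEC10A. Maturing cells gain the actin-bundling protein fascin (FSCN1) and secrete CCL17 and CCL22, the ligands of the T cell receptor CCR4. Several of these genes are not exclusive to dendritic cells, since monocytes and macrophages can also transcribe lectins and CCR4 ligands. In bulk RNA from sorted cells, fewer dendritic cells and less RNA per cell cannot be told apart.

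Counts on genes ranged from 1553616 to 5689644 per replicate (median 2140229.5). Synthetic spike-in RNAs took 0.284% to 13.3% of the counts of the libraries used. The libraries above 5% were that of Ly6Clow monocytes of mouse 23 (13.3%), the first of the pair summed for GFPpos glioma monocytes of mouse 22 (8.68%) and that of GFPpos glioma monocytes of mouse 24 (5.16%). All 9 monocyte and macrophage markers examined were detected in each of the 8 populations, with a summed level of 4638 to 11587 CPM per replicate. The 10 dendritic cell genes together made 86.2 to 2251 CPM. CPM is the read count per 1000000 counts of the replicate's TMM-scaled library size. Genes were called where edgeR's quasi-likelihood test, fitted over all 8 populations, gave an adjusted p under 0.05 (Benjamini-Hochberg over 11566 genes). All 10 dendritic cell genes passed the filter on low counts, some of them only through the populations in which they were high. Among the latter were *Fscn1*, *Ccl17*, *Ccl22*, *Xcr1* and *Clec9a*, which passed only through brain populations.

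In the average of the 6 brain populations against that of the 2 blood populations, 5 of the 10 genes were called higher and 3 lower, beside 39.5% of all tested genes called in either direction. *Fscn1*, *Ccl17*, *Ccl22*, *Clec9a* and *Xcr1* were higher in brain (25.8% of all genes were called higher). *Cd209a*, *Clec10a* and *Flt3* were lower (13.8% were called lower). *Zbtb46* and *Batf3* were not called in any of the 12 comparisons made. The replicates of brain and blood did not overlap for *Fscn1*, *Ccl17* and *Ccl22*. These were higher in all 22 brain replicates than in any of the 6 blood replicates, a separation shown by 6.33% of tested genes in either direction. With 0, 1 and 0 counts in blood, these 3 genes passed the filter only through brain populations. Passing it thus fixed their direction in advance, and their separation from blood is a description. *Xcr1* and *Clec9a*, at most 3.51 and 3.55 CPM in blood, also passed only through brain populations. That favoured a higher level in brain, so their calls are read as a description too. The calls were made over replicates from the same 4 mice, and all 8 were kept with the mouse as a block and without the libraries of over 5% spike-ins. With spike-ins as the scale, those of *Clec9a* and *Flt3* were lost (adjusted p 0.0708 and 0.0774). Blood cells were gated on low CD11c while brain cells were dissociated with enzymes, so tissue, gate and handling cannot be told apart in any comparison of brain with blood.

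**Figure D1:**
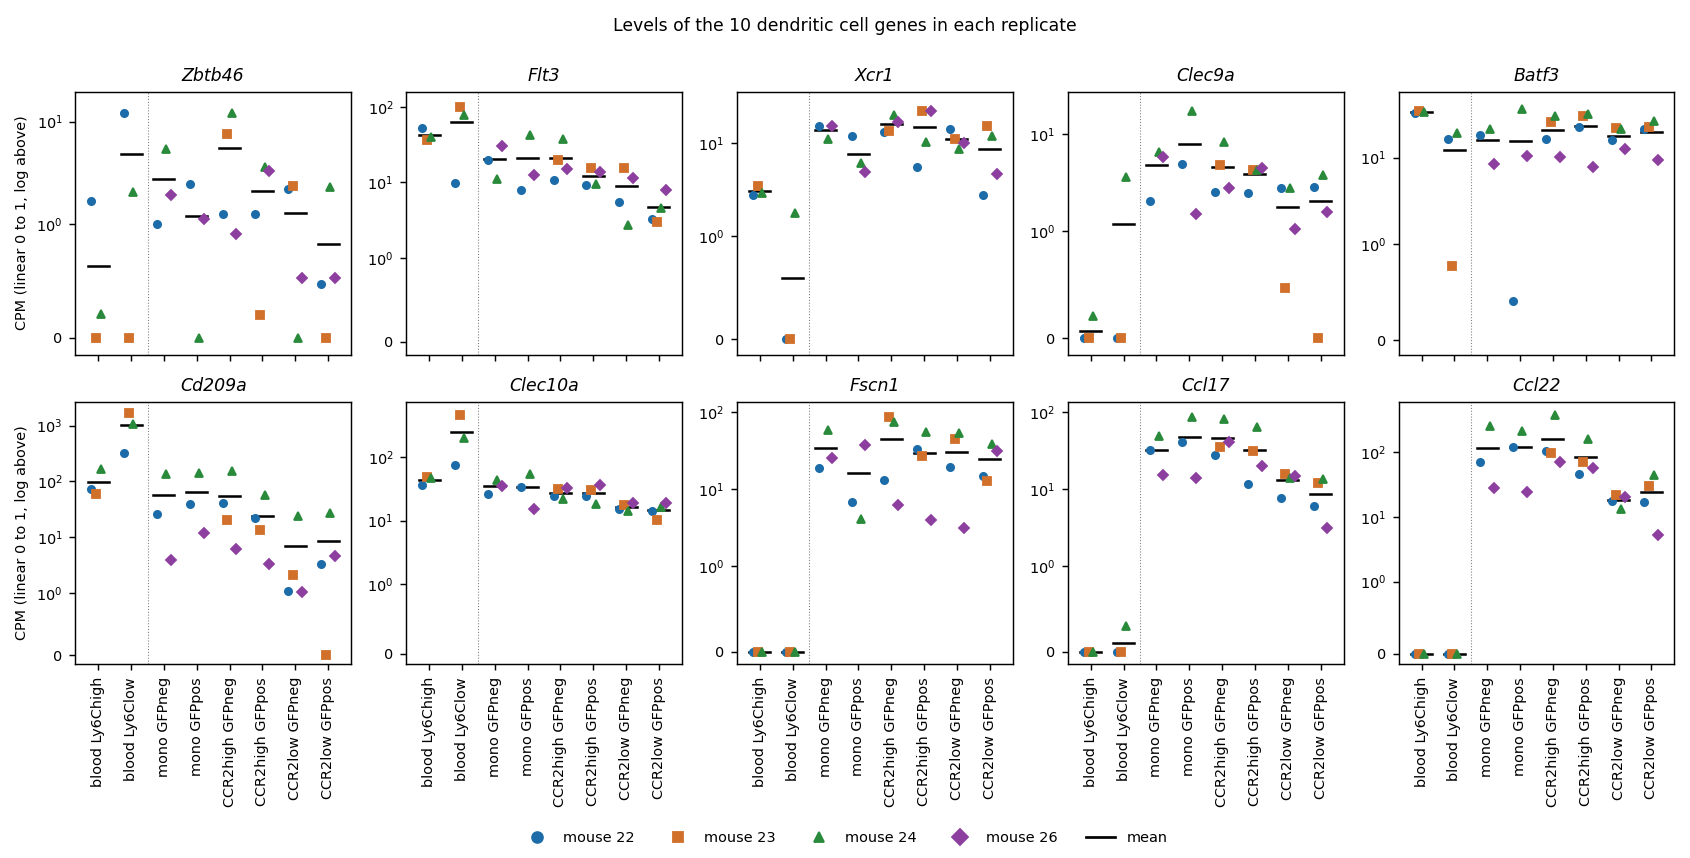
Level of each of the 10 genes (CPM, linear from 0 to 1 and logarithmic above) in each replicate of the 8 populations, with the mouse shown by colour and shape and the mean of each population by a bar. *Fscn1* and *Ccl22* were at 0 in all 6 blood replicates and above 3 CPM in all 22 brain replicates, while *Cd209a* and *Clec10a* had their highest mean in Ly6Clow blood monocytes.

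The 3 genes whose replicates did not overlap between blood and brain are shown with the stretch from 250 bases before their RefSeq transcription start (GRCm38.p6, the build of mm10) up to the start of the GENCODE gene, read 5′ to 3′. *Fscn1* lies on chromosome 5 (142960343 to 142973185, plus strand, GENCODE vM21). *Ccl22* (chromosome 8, 94745590 to 94751699) and *Ccl17* (chromosome 8, 94810453 to 94812036) are neighbours on the plus strand with 58.8 kb between them. The GENCODE models of *Ccl22* and *Fscn1* begin 94 and 12 bases before the RefSeq start, and those bases are left out. Capitals would mark a match to 1 of 4 motifs, and none of the 3 windows of 250 bases holds one:
*Fscn1* (chr5:142960105-142960342, plus strand): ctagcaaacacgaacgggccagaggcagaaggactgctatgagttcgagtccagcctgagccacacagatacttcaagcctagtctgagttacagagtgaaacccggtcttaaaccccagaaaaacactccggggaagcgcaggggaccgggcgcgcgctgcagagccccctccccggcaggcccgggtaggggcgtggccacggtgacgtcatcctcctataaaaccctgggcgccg
*Ccl17* (chr8:94810203-94810452, plus strand): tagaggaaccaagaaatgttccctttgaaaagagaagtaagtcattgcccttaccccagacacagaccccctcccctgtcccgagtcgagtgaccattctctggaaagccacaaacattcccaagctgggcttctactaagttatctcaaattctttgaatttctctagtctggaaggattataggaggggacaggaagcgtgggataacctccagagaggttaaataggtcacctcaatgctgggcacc
*Ccl22* (chr8:94745434-94745589, plus strand): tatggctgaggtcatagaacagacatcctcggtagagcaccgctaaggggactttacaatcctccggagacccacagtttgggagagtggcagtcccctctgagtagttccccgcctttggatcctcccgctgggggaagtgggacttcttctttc
The motifs, searched on both strands, were an IRF box (GAAA, any 2 bases, GAAA), found in 2.98% of 32851 windows of 250 bases, TGANTCA (AP-1 and BATF, 6.75%), GAGGAAG (a PU.1 core, 10.6%) and an NF-kB site (GGGA, any base, TTTCC, 0.356%). Of the 9 dendritic cell genes in the RefSeq table, *Zbtb46* held TGACTCA, which begins 61 bases before its RefSeq start. *Batf3* held GAGGAAG, which begins 153 bases before its RefSeq start. Both windows lie inside the GENCODE genes, so these matches are not upstream of them. That of *Zbtb46* (chromosome 2, 181424389 to 181424638) falls within 181387762 to 181459426 (minus strand). That of *Batf3* (chromosome 1, 191098164 to 191098413, plus strand) begins after the gene start at 191097847. No match says only that these letters are not in this window.

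*Ccl22*, a chemokine that draws CCR4-bearing T cells, had no count in any of the 6 blood replicates, where a count of 0 allows up to 1.76 CPM in Ly6Chigh and 1.42 CPM in Ly6Clow monocytes. In GFPneg glioma monocytes it stood at 70.2, 254 and 28.4 CPM in mice 22, 24 and 26. GFPneg CCR2high macrophages had 104, 95.5, 376 and 69.1 CPM in mice 22, 23, 24 and 26, and GFPneg CCR2low macrophages had 17.6, 21.9, 13.4 and 20.04 CPM. Every brain replicate thus stood above blood, and the CCR2low macrophages stood below all GFPneg monocytes and CCR2high macrophages. Against Ly6Chigh blood monocytes, whose level was set at 3 counts per library, the mean of *Ccl22* was at least 86.6-fold higher in glioma monocytes, at least 119-fold higher in CCR2high macrophages and at least 13.5-fold higher in CCR2low macrophages (adjusted p 3.37e-05, 1.36e-05 and 0.000604 by edgeR's quasi-likelihood test). These bounds cover counting error in blood and not the spread between mice. As *Ccl22* passed the filter only through brain populations, its direction was fixed in advance. The adjusted p values thus describe the separation and are no independent support for it. Without mouse 24, the mean of the other replicates is lower, with a fitted log2 difference of 10.13 in place of 11.36 for glioma monocytes and 10.97 in place of 11.81 for CCR2high macrophages, and the calls were kept.

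*Ccl17*, the other CCR4 ligand, had a single count in blood, in Ly6Clow monocytes of mouse 24 (0.296 CPM). GFPneg glioma monocytes held 32.1, 48.7 and 15.5 CPM in mice 22, 24 and 26. GFPneg CCR2high macrophages held 27.8, 35.5, 82.3 and 41.4 CPM in mice 22, 23, 24 and 26, and GFPneg CCR2low macrophages held 7.71, 15.8, 13.9 and 14.8 CPM. The order was as for *Ccl22*, with the CCR2low macrophages below all CCR2high macrophages but overlapping the lowest monocyte replicate. *Ccl17* was at least 23.7-fold higher than in Ly6Chigh blood monocytes in glioma monocytes, at least 34.4-fold in CCR2high macrophages and at least 9.61-fold in CCR2low macrophages (adjusted p 1.01e-05, 3.14e-06 and 4.49e-05). The filter fixed this direction in advance, as for *Ccl22*, so these values are a description. In the mean of the 6 brain populations against blood the fitted log2 difference was 8.20 ± 0.79 (SE), and 9.13 without Ly6Clow monocytes of mouse 24, which held the single blood count.

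*Fscn1*, the fascin that shapes the processes of mature dendritic cells, had no count in blood. GFPneg glioma monocytes held 19.1, 58.4 and 25.2 CPM (mice 22, 24 and 26), GFPneg CCR2high macrophages 13.2, 85.6, 74.9 and 6.18 CPM and GFPneg CCR2low macrophages 19.3, 45.3, 53.7 and 3.16 CPM (mice 22, 23, 24 and 26). Within the GFPneg macrophages, mouse 26 was far below mice 23 and 24, and the 3 cell types overlapped, unlike the order seen for *Ccl22*. The gain over Ly6Chigh blood monocytes was at least 25.2-fold, 33.2-fold and 22.4-fold (adjusted p 0.00121, 0.000534 and 0.00085). Here too the filter fixed the direction in advance, so these values are a description. Without mouse 24, the fitted log2 difference of glioma monocytes was 8.97 in place of 9.58.

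*Clec9a*, the receptor for actin of dead cells on type 1 dendritic cells, was low throughout. Ly6Chigh blood monocytes held 1 count in 3 replicates and Ly6Clow monocytes held 12, all in mouse 24 (3.55 CPM). The brain replicates ran from 0 to 17 CPM (median 2.79), with 223 counts in all. The highest was GFPpos glioma monocytes of mouse 24, a library with 5.16% spike-ins. GFPneg glioma monocytes (2.01, 6.42 and 5.81 CPM) and GFPneg CCR2high macrophages (2.52, 4.81, 8.33 and 2.74 CPM) were called higher than Ly6Chigh blood monocytes (adjusted p 0.0331 and 0.0244). The ratios of summed counts were 38.2 (exact 95% counting interval 6.26 to 1569) and 36.3 (6.26 to 1459), while CCR2low macrophages, at a ratio of 12.3 (1.89 to 516), did not pass the test (adjusted p = 0.105). The call in glioma monocytes was lost on leaving out any of the 3 blood replicates, or mouse 24 or 26 of the glioma monocytes (adjusted p 0.0759 to 0.125), the fitted log2 difference being 4.99 in all replicates and 6.70 without Ly6Chigh monocytes of mouse 24. That in CCR2high macrophages was lost without any of the 3 blood replicates or without mouse 24 of the macrophages (0.0565 to 0.0992), with 4.94 in all replicates and 6.66 without Ly6Chigh monocytes of mouse 24. Both calls were lost with spike-ins as the scale (0.229 and 0.183), and the first also with a filter of 1 count.

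*Xcr1*, the receptor for XCL1, held 2.81, 3.51 and 2.93 CPM in Ly6Chigh blood monocytes. Ly6Clow monocytes held no count in mice 22 and 23 and 1.78 CPM in mouse 24. The 2 blood populations thus did not overlap, as for 17.8% of all tested genes. Brain replicates ran from 2.81 to 22.6 CPM (median 12.1), and the GFPneg populations, at 8.79 CPM or more, stood above all blood. *Xcr1* was 2.37 ± 0.75 (log2, SE) higher in GFPneg CCR2high macrophages (13.2, 13.6, 20.1 and 17.2 CPM) than in Ly6Chigh blood monocytes (adjusted p = 0.0282). This call did not hold without mouse 24 or 26 of the macrophages or without any of the 3 blood replicates (adjusted p 0.0529 to 0.11), and it was lost with spike-ins as the scale (0.394) and with a filter of 1 count (0.0821). Glioma monocytes (log2 difference 2.18 ± 0.78, adjusted p = 0.0637) and CCR2low macrophages (1.83 ± 0.74, 0.0838) missed the threshold. Both passed it in DESeq2 (0.00709 and 0.0123), when only the compared populations were fitted (0.0155 and 0.0273) and without the libraries of over 5% spike-ins (0.0352 and 0.0478). Ly6Chigh minus Ly6Clow monocytes gave 2.13 ± 0.87 (adjusted p = 0.145), and 0.00231 when Ly6Clow monocytes of mouse 24 were left out, which left that population with 0 counts.

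Over all brain populations *Xcr1* was 2.99 ± 0.53 and *Clec9a* 3.05 ± 0.90 above blood (log2, adjusted p 6e-05 and 0.00841). Both genes passed the filter only through brain populations, which favoured this direction. Leaving out Ly6Clow monocytes of mouse 24 raised these differences to 4.95 and 5.45, and leaving out Ly6Chigh monocytes of mouse 24 raised that of *Clec9a* to 3.91. The third type 1 gene, the transcription factor *Batf3*, did not follow them. It had its highest mean in Ly6Chigh blood monocytes, where the replicates lay close together (33.1, 34.6 and 34.1 CPM). Brain replicates ran from 0.408 to 36.1 CPM (median 21.3), and the brain mean was -0.13 ± 0.48 (log2, adjusted p = 0.863) from that of blood. The lowest *Batf3* values, 0.408 CPM in GFPpos glioma monocytes of mouse 22 and 0.771 CPM in Ly6Clow monocytes of mouse 23, came from replicates with a library of over 5% spike-ins, as did the highest, 36.1 CPM in GFPpos glioma monocytes of mouse 24.

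*Cd209a*, a homolog of the human lectin DC-SIGN, was high in blood. Ly6Clow blood monocytes held 328, 1674 and 1078 CPM in mice 22, 23 and 24 and Ly6Chigh monocytes held 73.0, 59.2 and 165 CPM. These did not overlap, as for 17.8% of all tested genes, yet the difference of -3.36 ± 1.33 (log2, Ly6Chigh minus Ly6Clow) missed the threshold (adjusted p = 0.135). In the paired fit, with the mouse as a block, it passed, at -3.74 ± 0.77 (adjusted p = 0.00368). In brain it fell by 3.65 ± 0.62 on the log2 scale against the mean of blood (adjusted p = 3.74e-05), and 1 brain replicate, GFPpos CCR2low macrophages of mouse 23, had no count. GFPneg CCR2low macrophages, at 1.10, 2.12, 24.1 and 1.05 CPM in mice 22, 23, 24 and 26, were below Ly6Chigh blood monocytes by a log2 difference of -3.82 ± 1.28 (adjusted p = 0.0347). This call was lost without mouse 22, 23 or 26 of the macrophages or mouse 24 of the blood monocytes (adjusted p 0.0873 to 0.13) and with a filter of 1 count (0.118), and the difference was -6.01 without mouse 24 of the macrophages and -3.23 without mouse 24 of the blood monocytes. Glioma monocytes and CCR2high macrophages did not pass the test against Ly6Chigh monocytes (log2 differences -0.83 ± 1.25 and -0.87 ± 1.15).

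*Clec10a*, a galactose-binding lectin of macrophages and dendritic cells, held 75.5, 477 and 205 CPM in Ly6Clow blood monocytes and 36.5, 48.0 and 46.4 CPM in Ly6Chigh monocytes (mice 22, 23 and 24). It was the 1 dendritic cell gene called between the 2 blood populations, beside 5.61% of all tested genes, with a log2 difference of -2.53 ± 0.49 (Ly6Chigh minus Ly6Clow, adjusted p = 0.00231). Without Ly6Clow monocytes of mouse 23, the library with 13.3% spike-ins, the difference was -1.66 (adjusted p = 0.0247). The call was lost with spike-ins as the scale (0.837) and when only the blood populations were fitted. Brain replicates ran from 10.2 to 53.8 CPM (median 23.3), lower than blood by 2.09 ± 0.24 on the log2 scale (adjusted p = 9.78e-08). Blood there includes the high Ly6Clow monocytes. Against Ly6Chigh monocytes alone (mean 43.7 CPM), GFPneg glioma monocytes (35.3 CPM) and GFPneg CCR2high macrophages (27.7 CPM) were not called lower. In CCR2low macrophages without GFP (15.4, 17.9, 14.3 and 19 CPM) *Clec10a* was below Ly6Chigh blood monocytes (log2 difference -1.39 ± 0.44, adjusted p = 0.0259), a call lost without mouse 22 or 24 of the macrophages or mouse 23 or 24 of the blood monocytes (0.0559 to 0.0795) and with spike-ins as the scale (0.485). *Clec10a* has a close paralog in *Mgl2* and *Cd209a* in other members of the *Cd209* cluster, so counts are uncertain where reads match more than 1 of them.

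*Flt3*, the receptor for the growth factor of dendritic cell precursors, was present in every replicate. Ly6Chigh blood monocytes held 52.2, 36.9 and 40.3 CPM and Ly6Clow monocytes 9.91, 99.5 and 79.0 CPM in mice 22, 23 and 24. Brain replicates ran from 2.78 to 42.2 CPM (median 11.4), and *Flt3* fell by 2.02 ± 0.36 on the log2 scale against blood (adjusted p = 5.66e-05). It was lowest in CCR2low macrophages, at 5.51, 15.6, 2.78 and 11.6 CPM without GFP and 3.28, 3.02, 4.6 and 7.85 CPM with GFP. The GFPneg cells were below Ly6Chigh blood monocytes (log2 difference -2.26 ± 0.66, adjusted p = 0.0158, and 0.257 with spike-ins as the scale), while glioma monocytes (-1.08 ± 0.71) and CCR2high macrophages (-1.05 ± 0.64) did not pass the test.

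*Zbtb46*, the transcription factor that marks conventional dendritic cells, had 184 counts in all 28 replicates together, the fewest of the 10 genes. It ranged from 0 to 12.3 CPM in blood and from 0 to 12.2 CPM in brain, with 2 of 6 and 3 of 22 replicates at 0. The highest replicates were Ly6Clow monocytes of mouse 22 (12.3 CPM) and GFPneg CCR2high macrophages of mice 24 and 23 (12.2 and 7.62 CPM), the same population holding 1.26 and 0.915 CPM in mice 22 and 26. Its brain and blood means were 0.16 ± 0.81 apart on the log2 scale (adjusted p = 0.899).

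Against Ly6Chigh blood monocytes, 4 genes were called higher and 0 lower in GFPneg glioma monocytes (13.8% of all genes in either direction and 11.1% higher), 5 higher and 0 lower in CCR2high macrophages (17.8% and 12.7%) and 3 higher and 3 lower in CCR2low macrophages (20.2%, with 14.1% higher and 6.09% lower). Replicates did not overlap for 7, 7 and 9 of the 10 genes, beside 35.6%, 35.7% and 35.3% of all genes. With spike-ins as the scale, the last of these was 3 higher and 1 lower. These 3 comparisons share their blood replicates. The median log2 difference of the 10 genes was 2.17, 2.76 and 1.47, beside 0.12, 0.15 and 0.17 over all tested genes. These medians rest partly on fitted values of genes at 0 in blood, which depend on the prior count. All genes called higher here were among *Fscn1*, *Ccl17*, *Ccl22*, *Clec9a* and *Xcr1*, which passed the filter only through brain populations. That favours higher calls and a median above 0, so both are a description. Microglial markers also differed between blood and brain. All 6 were detected in each brain population, at a summed level of 1473 to 8268 CPM, while blood held 58.6 to 285 CPM, with *Sall1* at 0 in both blood populations and *Tmem119* at 0 in Ly6Clow monocytes. T and NK cell markers summed to 22.8 to 197 CPM in Ly6Chigh blood monocytes, with *Ncr1* at 0, to 950 to 1402 CPM in Ly6Clow monocytes and to 280 to 1740 CPM in brain, with all 7 detected. The part of either in these differences was not tested.

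Per kilobase of exon, which allows genes to be compared, *Cd209a* led in Ly6Clow blood monocytes (mean level 649 CPM per kb) and in Ly6Chigh monocytes (62.6). In GFPneg CCR2high macrophages the order of mean levels was *Ccl17* (90.9 CPM per kb), *Ccl22* (69.3), *Cd209a* (34.8), *Fscn1* (14.9), *Batf3* (12.9), *Clec10a* (9.57), *Xcr1* (3.6), *Flt3* (3.38), *Clec9a* (1.4) and *Zbtb46* (0.648). The CCR4 ligands thus had the highest levels there, and *Xcr1*, *Flt3*, *Clec9a* and *Zbtb46* the lowest. When the 8 populations were put in order of mean level for each gene, the replicates of neighbours overlapped in all but 9 of 70 pairs. Those 9 were the steps from brain to blood for *Fscn1*, *Ccl17* and *Ccl22*, from GFPpos CCR2high to GFPpos CCR2low macrophages for *Ccl22*, from Ly6Clow to Ly6Chigh monocytes for *Cd209a* and *Clec10a*, from Ly6Chigh monocytes to GFPpos CCR2high macrophages for *Batf3*, and for *Xcr1* from GFPpos glioma monocytes to Ly6Chigh and on to Ly6Clow blood monocytes. Such steps were not counted over all genes. The filter favoured those from brain to blood of *Fscn1*, *Ccl17*, *Ccl22* and *Xcr1*, which passed it only through brain populations.

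Within the brain, no dendritic cell gene was called between GFPneg glioma monocytes and CCR2high macrophages (0.182% of all genes called), between GFPneg monocytes and CCR2low macrophages (1.21%) or between the GFPneg CCR2high and CCR2low macrophages (0%). At an unadjusted p under 0.05 there were 0, 3 and 3 of the 10 genes, beside 622, 978 and 276 of all 11566. DESeq2 called 0, 1 and 1, beside 93, 274 and 8 of all genes. The gene nearest the threshold was *Ccl22*, which was higher in monocytes than in CCR2low macrophages by a log2 difference of 2.68 ± 0.77 (adjusted p = 0.114). In the paired fit, with the mouse as a block, it passed at 2.03 ± 0.53 (0.0494), as did *Cd209a* at 2.88 ± 0.78 (0.0494). Between CCR2high and CCR2low macrophages *Ccl22* differed by 3.13 ± 0.75 (adjusted p = 0.672). DESeq2 gave 2.63 ± 0.76 (adjusted p = 0.0242) and 3.12 ± 0.70 (0.0172) for these 2 differences of *Ccl22*. *Ccl22* and *Clec10a* replicates did not overlap between GFPneg monocytes and CCR2low macrophages, as for 13.8% of all genes, and *Ccl22*, *Ccl17* and *Clec10a* did not between GFPneg CCR2high and CCR2low macrophages, as for 3.13%. All 10 fitted differences between the latter were above 0, with a median of 1.30 beside -0.01 over all genes, but 0 of 10 genes were called and 0 of all 11566.

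Within mice the direction varied for 6 of the 10 genes. *Flt3*, *Clec10a*, *Ccl17* and *Ccl22* were higher in CCR2high than in CCR2low macrophages in 4 of 4 mice, both without and with GFP. Both GFP fractions come from the same mice, and this agreement was not counted over all genes, so it is a description. *Cd209a* was higher in 4 of 4 mice without GFP and 3 of 4 with GFP, as in GFPpos cells of mouse 26 it stood at 3.26 CPM in CCR2high and 4.71 CPM in CCR2low macrophages. *Xcr1*, *Clec9a*, *Batf3* and *Fscn1* were higher in 3 of 4 mice in either case, and *Zbtb46* in 3 of 4 mice without GFP and 4 of 4 with GFP. The mean of the 4 macrophage populations lay below that of the 2 glioma monocyte populations by log2 differences of -1.82 ± 0.71 for *Cd209a*, -1.25 ± 0.45 for *Ccl22* and -1.01 ± 0.40 for *Flt3*, none of which passed the test (adjusted p 0.261, 0.208 and 0.285). Of the 10 genes 0 were called here, beside 2.38% of all genes. At an unadjusted p under 0.05 there were 5 of the 10, beside 1223 of all 11566 genes. DESeq2 called 0 of the 10, beside 398 of all genes. With the mouse as a block, *Cd209a* alone passed (adjusted p = 0.022). Microglial markers ran the other way, at 1473 to 2572 CPM in GFPneg monocytes, 2080 to 4311 CPM in GFPneg CCR2high and 3177 to 8268 CPM in GFPneg CCR2low macrophages, and their part was not tested.

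**Figure D2:**
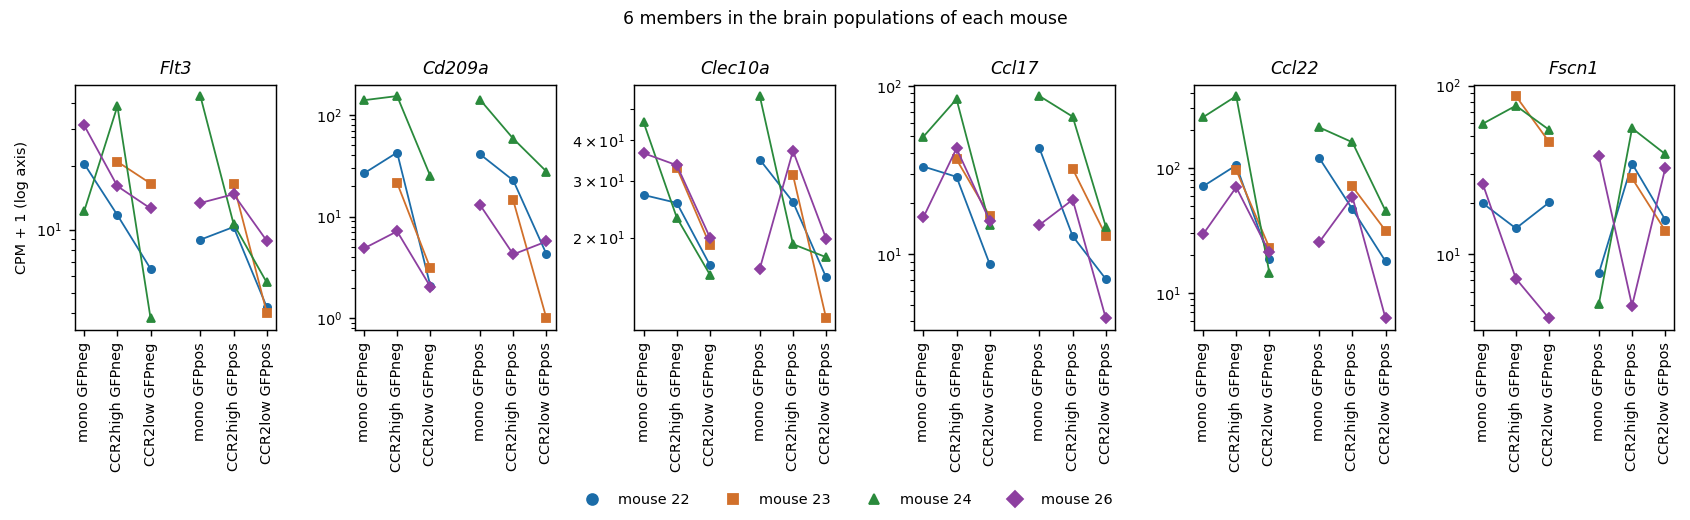
Level (CPM + 1, log axis) of 6 genes in the brain populations, with lines joining the populations of each mouse, GFPneg on the left and GFPpos on the right of each panel. The lines of *Ccl17* and *Ccl22* fall from CCR2high to CCR2low macrophages in 4 of 4 mice on both sides, while those of *Fscn1* cross.

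Uptake of tumor membrane was not accompanied by a called change in any of the 10 genes, in glioma monocytes, CCR2high macrophages or CCR2low macrophages (0% of all genes called in each). At an unadjusted p under 0.05 there was 0 of 10 in each, beside 739, 69 and 184 of all 11566 genes. DESeq2 called 0 of the 10 in each, beside 20, 1 and 5 of all genes. *Ccl22* means were 118 CPM with GFP and 117 CPM without in monocytes, 83.3 and 161 CPM in CCR2high macrophages and 24.2 and 18.3 CPM in CCR2low macrophages (log2 differences 0.00 ± 0.80, -0.95 ± 0.69 and 0.42 ± 0.71). Within mice, *Flt3*, *Cd209a*, *Ccl17* and *Ccl22* were lower with GFP in 4 of 4 mice in CCR2high macrophages, as was *Ccl17* in CCR2low macrophages. In monocytes *Cd209a* was higher and *Xcr1* lower with GFP in 3 of 3 mice. Such agreement was not counted over all genes. The interaction term in edgeR put the GFP effect on *Cd209a* in monocytes 1.4 (log2) above that in CCR2high macrophages and did not pass the test. Of 30 such terms for the 10 genes 0 passed, the smallest unadjusted p being 0.182.

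The mice differed in a way that recurred across populations. Of the brain populations it contributed to, mouse 24 had the highest level of *Cd209a* in 6 of 6, and of *Ccl17*, *Ccl22*, *Clec9a* and *Batf3* in 5 of 6. Mouse 26 had the lowest *Cd209a* and *Batf3* in 5 of 6 and the lowest *Ccl22* in 4 of 6. In GFPneg CCR2high macrophages, *Cd209a* stood at 152 CPM in mouse 24 and 6.18 CPM in mouse 26. *Clec10a* did not share this order, as mouse 26 was highest in 4 of 6 brain populations. Markers of some other cells moved with mouse 24, which had the highest summed level of the 6 microglial and the 8 neutrophil markers in 6 of 6 brain populations and of the 5 basophil and mast cell markers in 5 of 6. It was highest in 4 of 6 for B cell and 3 of 6 for T and NK cell markers. For monocyte and macrophage and for astrocyte and oligodendrocyte markers it was highest in 0 of 6. B cell markers summed to 124 to 1943 CPM in brain and 522 to 1221 CPM in blood. The neutrophil markers were at 387 to 2811 CPM in mouse 24 and 9.37 to 597 CPM in the other mice, all 8 being detected in each brain population. The basophil and mast cell markers reached 221 CPM in mouse 24 and 91.3 CPM in the others, and *Ms4a2* was at 0 in 3 macrophage populations. Their part was not tested.

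Over the 22 brain replicates, *Ccl17* and *Ccl22* rose and fell together (Spearman's rho 0.88), as did *Cd209a* and *Ccl22* (0.76), and no other of the 45 pairs of members was above 0.7. No pair among *Zbtb46*, *Flt3* and the type 1 genes reached that value. These points share mice, populations and libraries, so that the coefficients describe the replicates and carry no test. The genes most like *Ccl22* among all tested were *Syngr2* (0.92), *Ccl17* and *Traf1* (0.88 each), and those most like *Ccl17* were *Traf1* (0.89), *Ccl22* (0.88) and *Ear2* (0.87). For *Cd209a* they were *Sec11a* (0.80), *Vps72* (0.79) and *Qpct* (0.77), for *Clec9a* *Btla* (0.77), *Trex1* (0.73) and *Alpk2* (0.69), and for *Flt3* *Gm11110* (0.79), *Klrb1c* (0.78) and *P2ry10* (0.75). For *Batf3* they were *Pole4* (0.88), *Mrpl17* (0.83) and *Timm23* (0.81), for *Fscn1* *Dtwd2* (0.87), *Rsrp1* (0.85) and *Fkbp4* (0.85), and for *Clec10a* *Alpk1* (0.83), *Sirpb1b* and *Ikbkb* (0.81 each). *Xcr1* was most like *Shoc2* (0.71), *Wasf2* (0.69) and *Arih1* (0.66), and *Zbtb46* most like *Serpinb9b* (0.78), *Ankrd49* (0.71) and *Rsbn1l* (0.69).

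**Figure D3:**
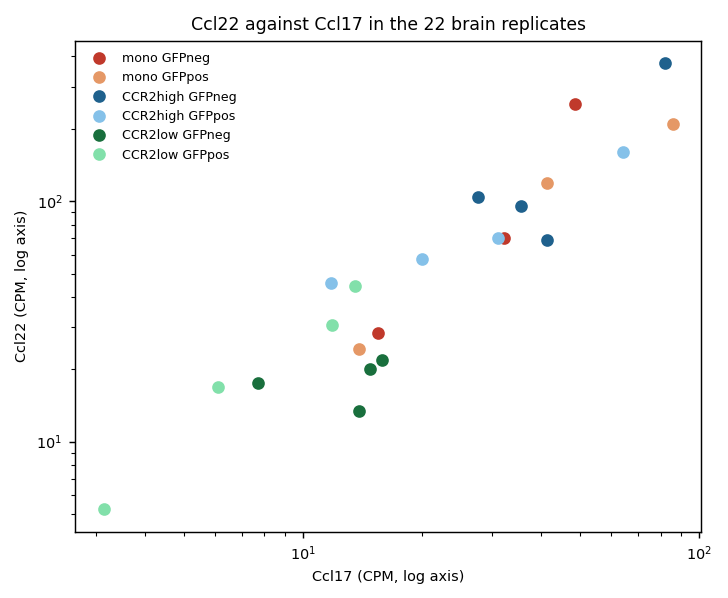
*Ccl22* against *Ccl17* (CPM, both axes logarithmic) in the 22 brain replicates, coloured by population. The points rise together (rho 0.88) from GFPpos CCR2low macrophages of mouse 26, at 3.14 and 5.23 CPM, to GFPneg CCR2high macrophages of mouse 24, at 82.3 and 376 CPM.

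Other genes of the dendritic cell program were counted from lists of 78 genes, of which 70 were tested. The lists were chosen with earlier results of these data known, so their shares beside those of all genes describe them and test nothing. In brain against blood, 39 were called higher and 8 lower, beside 25.8% and 13.8% of all tested genes, and 32 and 4 with spike-ins as the scale. The mature or migratory list had the most, with 14 of 18 genes higher and 1, *Samsn1*, lower (lost with spike-ins as the scale, adjusted p = 0.156). Among the former were *Ccl5*, a chemokine for T cells (log2 difference 3.20 ± 0.44, adjusted p = 2.22e-06), *Cd83*, a maturation marker (3.20 ± 0.36), and *Ccr7*, the receptor that guides dendritic cells to lymph nodes (2.20 ± 0.39). Against Ly6Chigh blood monocytes this list had 12 of 18 genes higher in GFPneg glioma monocytes, 12 in CCR2high macrophages and 9 in CCR2low macrophages, beside 11.1%, 12.7% and 14.1% of all genes. *Ccr7* mean levels were 18.5 CPM in Ly6Chigh blood monocytes, 159 CPM in Ly6Clow monocytes and 115 to 332 CPM in the brain populations. *Ccl5* and *Ccr7* are also genes of T cells, whose markers are given above.

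The type 1 list had 9 of 12 tested genes called higher in brain and 0 lower, among them *Irf8*, a transcription factor shared with monocytes, at 1.27 ± 0.25 (adjusted p = 0.000267, and 0.0709 with spike-ins as the scale). The type 2 list had 3 of 12 higher, a share near the 25.8% of all genes, and 3 lower. Its *Mgl2*, the paralog of *Clec10a*, went the opposite way to that gene, from 1.91 CPM in Ly6Chigh blood monocytes to 57.1 CPM in GFPneg glioma monocytes and 203 CPM in GFPneg CCR2high macrophages (log2 difference from Ly6Chigh 4.63 ± 0.82 and 6.46 ± 0.85), and it shared with *Clec10a* a higher level in Ly6Clow monocytes (56.2 CPM). The plasmacytoid list had 9 of 14 higher and 1 lower. Its *Siglech*, which microglia also carry, had no count in blood and means of 126 to 267 CPM in brain. *Bst2*, which interferons induce in many cells, was 2.4 ± 0.15 higher (log2). The lineage and growth factor list had 3 of 13 higher, also near the share of all genes, and 3 lower. Its *Itgax*, which encodes the CD11c used in the blood gate, had means of 21 CPM in Ly6Chigh and 248 CPM in Ly6Clow monocytes and of 179 to 497 CPM in brain. *Bcl6* fell by 2.70 ± 0.17 on the log2 scale.

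Between the blood populations, 6 genes of these lists were called higher in Ly6Chigh and 12 lower, beside 1.96% and 3.65% of all genes, the latter including *Ccr7*, *Cd83* and *Mgl2*. In the paired fit, with the mouse as a block, they were 7 and 16. With spike-ins as the scale they were 2 higher and 0 lower, where the median of all genes was 1.69 in place of 0.02. Against Ly6Chigh monocytes the lists had 33 higher and 2 lower in GFPneg glioma monocytes, 28 and 4 in CCR2high macrophages and 25 and 5 in CCR2low macrophages. Over all genes these shares were 11.1% and 2.68%, 12.7% and 5.14%, and 14.1% and 6.09%. With spike-ins as the scale the counts were 19 and 0, 20 and 0, and 15 and 0. Within the brain, 0 were called between GFPneg monocytes and CCR2high macrophages, 0 between GFPneg CCR2high and CCR2low macrophages and 0 for GFP in each of the 3 cell types. In the paired fit, with the mouse as a block, the first of these gave 3 higher in monocytes (*Ifi205*, *Ly6d* and *Klk1*, adjusted p 0.0337, 0.000733 and 0.0392) and 1 lower (*Mgl2*, 0.0184). GFPneg monocytes against CCR2low macrophages gave 2 higher (*Ifi205* and *Klk1*, beside 1.06% of all genes) and 1 lower (*Cadm1*, beside 0.147%). The macrophage mean against the glioma monocyte mean gave 1 higher and 6 lower (0.32% and 2.06% of all genes), and 1 and 8 in the paired fit. With spike-ins as the scale 0 were called in any of these comparisons within the brain.

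**Figure D4:**
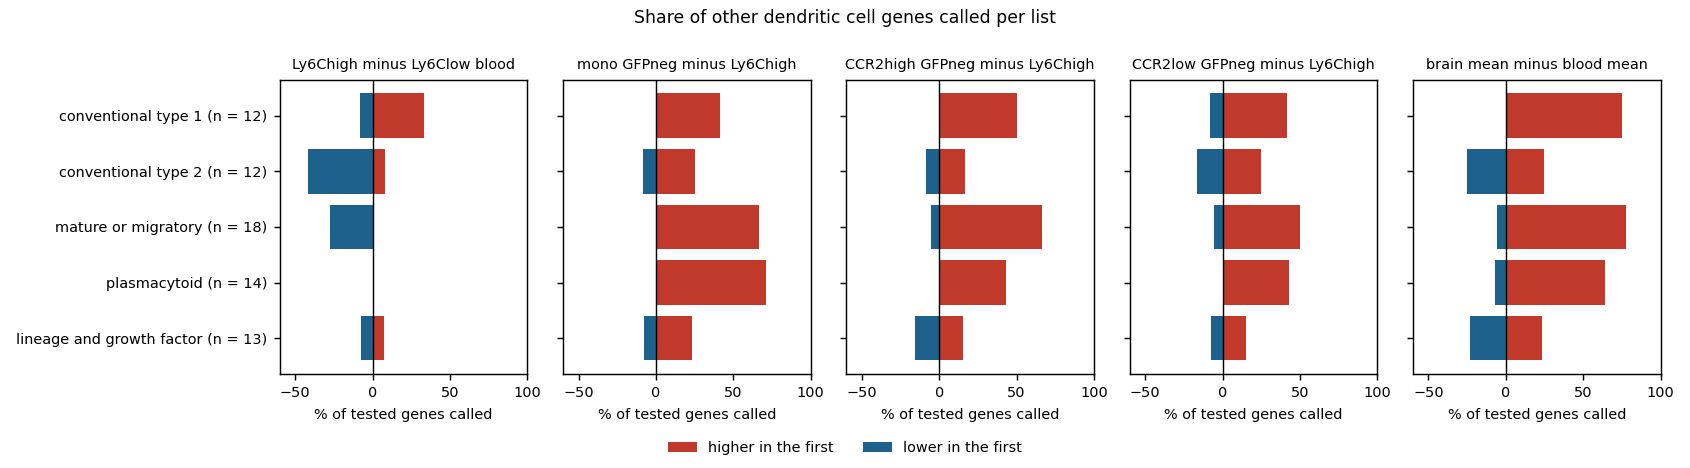
Share of the tested genes of each list (n in the axis labels) called higher (red, to the right) or lower (blue, to the left) in 5 comparisons, as a percentage on a linear axis. The mature or migratory list reached 14 of 18 genes higher in brain against blood, where 25.8% of all genes were higher, and the type 2 list had 3 of 12 higher and 3 lower. The lists were chosen with earlier results of these data known, so the shares are descriptive.

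Partners of the chemokine members were counted too. *Xcl1*, the ligand of XCR1, had means of 2.24 and 5.68 CPM in blood and 6.98 to 21.1 CPM in the brain populations (log2 difference 1.88 ± 0.69, adjusted p = 0.0329, and 0.153 with spike-ins as the scale). *Ccr4*, the receptor of CCL17 and CCL22, had means of at most 5.5 CPM in any population and no count in Ly6Chigh blood monocytes and GFPpos CCR2low macrophages. *Ccl19*, a ligand of CCR7, had counts only in macrophages, 8 in GFPneg CCR2high, 2 in GFPpos CCR2high and 3 in GFPpos CCR2low cells, and *Ccl21a* had 0 in all populations. These last 3 were below the filter on low counts.

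A pair of samples had repeat libraries. For GFPpos glioma monocytes of mouse 22, the first library, with 8.68% spike-ins, held no count of *Xcr1*, *Clec9a*, *Zbtb46* or *Batf3*, where 0 allows up to 1.78 CPM. The second, with 1.29% spike-ins, held 14.7, 5.99, 2.99 and 0.499 CPM of these genes. *Ccl22* was at 95.2 and 106 CPM, and *Clec10a* at 33.3 and 27.4 CPM. *Ccl17* was at 17.8 and 43.2 CPM and *Fscn1* at 11.3 and 3.49 CPM. *Cd209a* was at 45.8 and 29.7 CPM and *Flt3* at 10.1 and 5.49 CPM. For Ly6Clow blood monocytes of mouse 23, *Batf3* had 342 counts in the library that failed the quality rule and 2 in the one used, at 18% and 13.3% spike-ins, while *Flt3* was at 97.1 and 95.9 CPM.

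**Figure D5:**
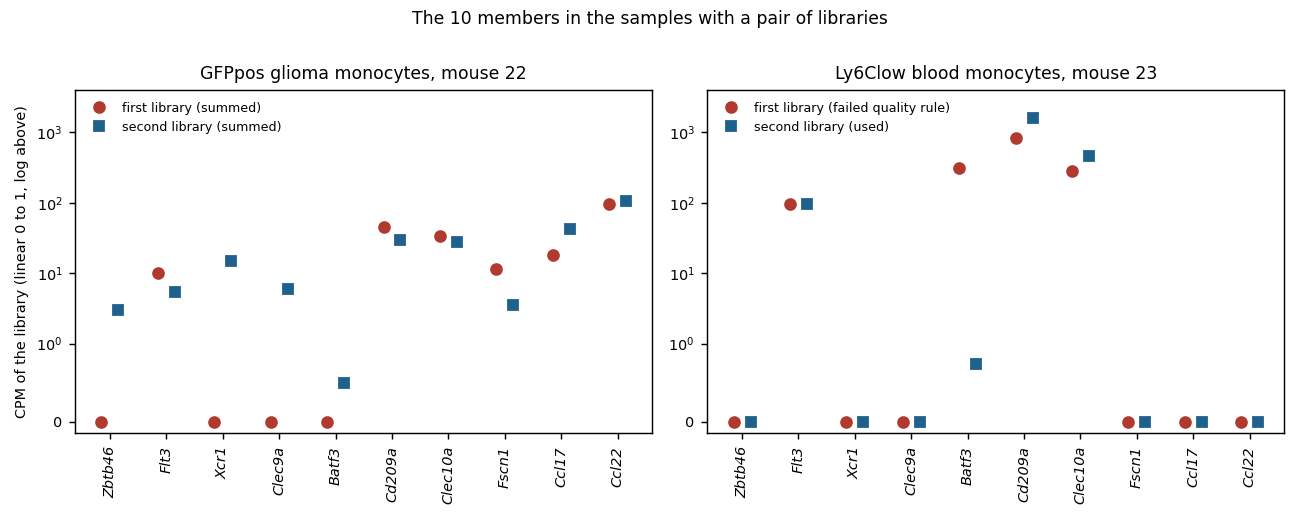
Level of the 10 genes (CPM of each library before TMM scaling, linear from 0 to 1 and logarithmic above) in the 2 samples with a pair of libraries. *Xcr1*, *Clec9a* and *Zbtb46* were at 0 in the first and at 14.7, 5.99 and 2.99 CPM in the second library of GFPpos glioma monocytes of mouse 22, and *Batf3* was at 313 and 0.743 CPM in the libraries of Ly6Clow blood monocytes of mouse 23.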

How the data were processed

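RNA-seq counts were analysed from 8 populations sorted by FACS from 4 mice, in 30 libraries. The authors deposited whole-number read counts per gene without normalization. To make them they reverse transcribed polyadenylated RNA with spike-ins, mapped read pairs with STAR against mm10, discarded duplicates (Picard 1.8.4 per the labels) and assigned the rest to Gencode genes of GRCm38 using htseq-count, in the strict mode for intersections. Reads lost to duplicate removal or shared between overlapping genes cannot be recovered from the counts, and a strand setting is not given in the sources used here. Reads on no gene (6.28% to 17.4%) and on overlapping genes (1.58% to 1.9%) stayed out of library sizes, and 0 columns were left unused.

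The quality rule of at least 6000 genes with 5 or more reads removed 1 library, and the pair of libraries of GFPpos glioma monocytes of mouse 22 was summed, leaving 28 replicates (6 of blood, 22 of brain). Tests used edgeR 4.0.16 in R 4.3.3 with filterByExpr, TMM scaling and the robust quasi-likelihood test, two-sided, in 1 fit over all populations for 12 comparisons, with Benjamini-Hochberg adjustment over 11566 genes and calls under 0.05. Means over several populations weight each population equally, but replicates from the same mouse are not independent. The SE given with an edgeR log2 difference is its absolute size divided by the square root of the F statistic, and was not estimated separately. For genes at or near 0 in a group, the difference and this SE depend on the prior count. A group at 0 was set at 3 counts per library (95% limit, counting error only) for lower bounds of a fold. The bound takes the mean of the other group and leaves out its spread between mice. Replicate numbers are mouse numbers, so they pair samples. Deviations from population means correlated at a median of 0.14 in 86 pairs from the same mouse (-0.10 to 0.67) and at -0.03 in 256 pairs from different mice. The paired fit with a mouse block was an alternative.

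All 10 members are named, with the 3 genes most like each over the brain replicates, and of the other lists up to 5 called genes of highest mean CPM per list. *Klk1*, *Cadm1* and *Ms4a2* were named after their values were seen. The members and all lists were chosen with earlier results of these data known. Gene positions and exon lengths come from GENCODE vM21, which holds all 10 symbols, and promoter sequences from RefSeq on GRCm38.p6. The alternatives were DESeq2 size factors, spike-in scaling, DESeq2 1.42.0, other filters, the block, the compared populations only, each summed library alone, and leaving out each replicate. Leaving out the libraries of over 5% spike-ins was chosen after seeing the data.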

Additional observations from a re-analysis of the deposited data

Results flagged for a closer look

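In 3 of 40 groups of 4 replicates, each a dendritic cell gene in a macrophage population, 1 replicate stood far from the other 3, where chance gives about 1 in 20. *Ccl22* was at 376 CPM in GFPneg CCR2high macrophages of mouse 24, and the next was 104 CPM. *Cd209a* was at 24.1 CPM in GFPneg CCR2low macrophages of mouse 24, and the next was 2.12 CPM. *Clec9a* was at 2.48 CPM in GFPpos CCR2high macrophages of mouse 22, below the next at 4.20 CPM.

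The library of Ly6Clow blood monocytes of mouse 23 that failed the quality rule, and so entered no comparison, held 106 counts of *Flt3*, 342 of *Batf3*, 920 of *Cd209a* and 308 of *Clec10a*, each above the limit of 3 that a count of 0 allows.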

How the results depend on the processing

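Of the 24 called differences of single genes, 15 kept their call in every alternative in which they could be tested, and 0 of the 24 changed direction. Calls of *Ccl17*, *Ccl22* and *Fscn1* between brain and blood were among those kept. The filter fixed the direction of these 3 genes in advance, so keeping them adds no support. With spike-ins in place of TMM, the median of all genes moved from 0.02 to 1.69 (log2) between the blood populations, from 0.18 to 0.68 between brain and blood, from -0.01 to 0.78 between macrophages and glioma monocytes and, for GFP in glioma monocytes, from 0.07 to -1.37. Differences under that scaling stand relative to these shifts. The number of dendritic cell genes called between the blood populations was then 0 in place of 1, and in CCR2high macrophages against Ly6Chigh blood monocytes 3 in place of 5. With only the compared populations fitted, it was 0 between the blood populations, and the calls among all genes there were 0 in place of 649 (36 with spike-ins, 1375 in DESeq2, 397 with a filter of 1 count). Calls among all genes were 2448 in place of 4574 between brain and blood with spike-ins, and 9 in place of 275 between macrophages and glioma monocytes (529 with the compared populations only). With spike-ins they were 398, 523 and 591 in GFPneg glioma monocytes, CCR2high and CCR2low macrophages against Ly6Chigh blood monocytes, in place of 1596, 2060 and 2340. The 21 calls between GFPneg glioma monocytes and CCR2high macrophages ranged from 0 (spike-ins) to 101 (compared populations only), and the 140 between GFPneg glioma monocytes and CCR2low macrophages from 1 to 293 under the same settings. DESeq2 called 8 genes between GFPneg CCR2high and CCR2low macrophages and 20, 1 and 5 for GFP in glioma monocytes, CCR2high and CCR2low macrophages, where edgeR called 0, the block 3 in the first of these, and leaving out the libraries of over 5% spike-ins 1 in the first and 1 in the last. Between the blood populations, 2444 genes were called without Ly6Clow monocytes of mouse 24 and 224 without Ly6Chigh monocytes of mouse 23. With the replicate block, the paired fit called 2 dendritic cell genes there, 2 between GFPneg glioma monocytes and CCR2low macrophages and 1 between macrophages and glioma monocytes, and it changed no other call of the 10 genes. DESeq2 called 1 dendritic cell gene between GFPneg glioma monocytes and CCR2low macrophages and 1 between GFPneg CCR2high and CCR2low macrophages, where edgeR called 0. On leaving out each replicate in turn, the count of dendritic cell genes ran from 1 to 2 between the blood populations and from 3 to 5 in CCR2high macrophages against Ly6Chigh blood monocytes. Leaving out 2 replicates and 1 library of high spike-in share moved no count of dendritic cell genes by over 1.5 times. Depth limits *Zbtb46* and *Clec9a* most, since a count of 0 allows up to 2.04 CPM in a brain replicate, near their levels in many of them. The brain sort used antibodies to F4/80 and Ly6C. No value here tells dendritic cells sorted along with the others from expression by monocytes or macrophages.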
